A study of Mus musculus with 2 samples.

Results

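Malat1, Neat1, Meg3, Snhg11, Miat, Rmst and Dlx6os1 are 7 mouse genes whose long noncoding RNAs are grouped here as nuclear RNAs. They were found by symbol among the 31040 genes of a single-nucleus RNA sequencing matrix of mouse prefrontal cortex, and each matched 1 row. The genes were picked with their levels in these nuclei already known, so the levels are given as a description, with no test. The labels name a METH group, which received 5 mg/kg METH into the peritoneum for 14 days, and a Control group, which received saline in the same way for 14 days. All animals were wild-type male C57BL/6 mice 2 months old, killed under chloral hydrate. The prefrontal cortices of 3 mice per group went into nuclei purified on an iodixanol gradient, about 8000 nuclei were loaded per library, and the 10x 3′ assay was read on an Illumina HiSeq. Barcodes end in 1 of 2 numbers that separate 2 libraries, called library 1 and library 2, but neither the labels nor the file ties a number to METH or Control. No METH value is therefore set against a Control value. Differences between the libraries are differences between 2 libraries and not between treatments.

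Long noncoding RNAs are transcripts that carry no long conserved reading frame, and many act in the nucleus where they are made. Malat1 collects in nuclear speckles, which store splicing factors, and Neat1 is the scaffold of paraspeckles, which hold RNA-binding proteins such as Sfpq and Nono. Other members act near their own gene or through a protein partner, among them the maternally expressed Meg3, and Dlx6os1, which arises beside the Dlx5 and Dlx6 genes of forebrain inhibitory neurons.

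The matrix held 20766 barcodes and 66566100 unique molecular identifiers (UMIs), the tags that count single captured RNA molecules. After barcodes with under 500 genes and called doublets were removed, 18002 nuclei remained, 8003 in library 1 and 9999 in library 2, with medians of 3047 and 2924 UMIs. The libraries shared 154 barcode sequences, 111 of them among the kept nuclei, and each was treated as a separate nucleus in its own library. Clusters were named from markers, and 8 classes held at least 100 nuclei each. They were 7513 excitatory neurons, 2354 inhibitory neurons, 1210 striatal projection neurons, 810 neuroblast-like nuclei, a mixed class described further on, 305 astrocytes, 3074 oligodendrocytes, 355 oligodendrocyte precursors and 880 microglia, each an "-like" class named from markers. Although the labelled tissue is prefrontal cortex, the striatal class led in 9 of its 9 markers, among them Drd1 and Adora2a. All markers of the 4 glial classes were highest in their own class too, against 6 of 7 in neuroblast-like nuclei, 5 of 7 in inhibitory neurons and 4 of 7 in excitatory neurons, whose Slc17a7, Tbr1 and Nrn1 were highest in microglia. Median depth ran from 693 UMIs per nucleus in microglia to 4440 in excitatory neurons. A further 1299 nuclei, 7.22% of those kept, stayed in unnamed clusters.

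The 7 RNAs together took 5.48% of the UMIs of the kept nuclei, and Malat1 alone took 3.58%. Levels are given in CPM, the usual scale that sets the UMIs of an RNA against all UMIs of a class, on which this 3.58% is 35817 CPM. They cover both libraries unless a library is named. Intervals are exact 95% intervals that cover counting error only, since nuclei of 1 library are not replicates. A highest class was called clear where its ratio to the second-ranked class had an interval above 1. That held for 7 of the 7 RNAs, and for 29.5% of the 15765 genes measured. Because the RNAs were chosen by level, nothing is read from that difference. In 5 of the 7 the same class was highest in each library taken alone, which also held, with a clear highest class, for 28% of all genes. Meg3 and Dlx6os1 were the exceptions.

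**Figure D1:**
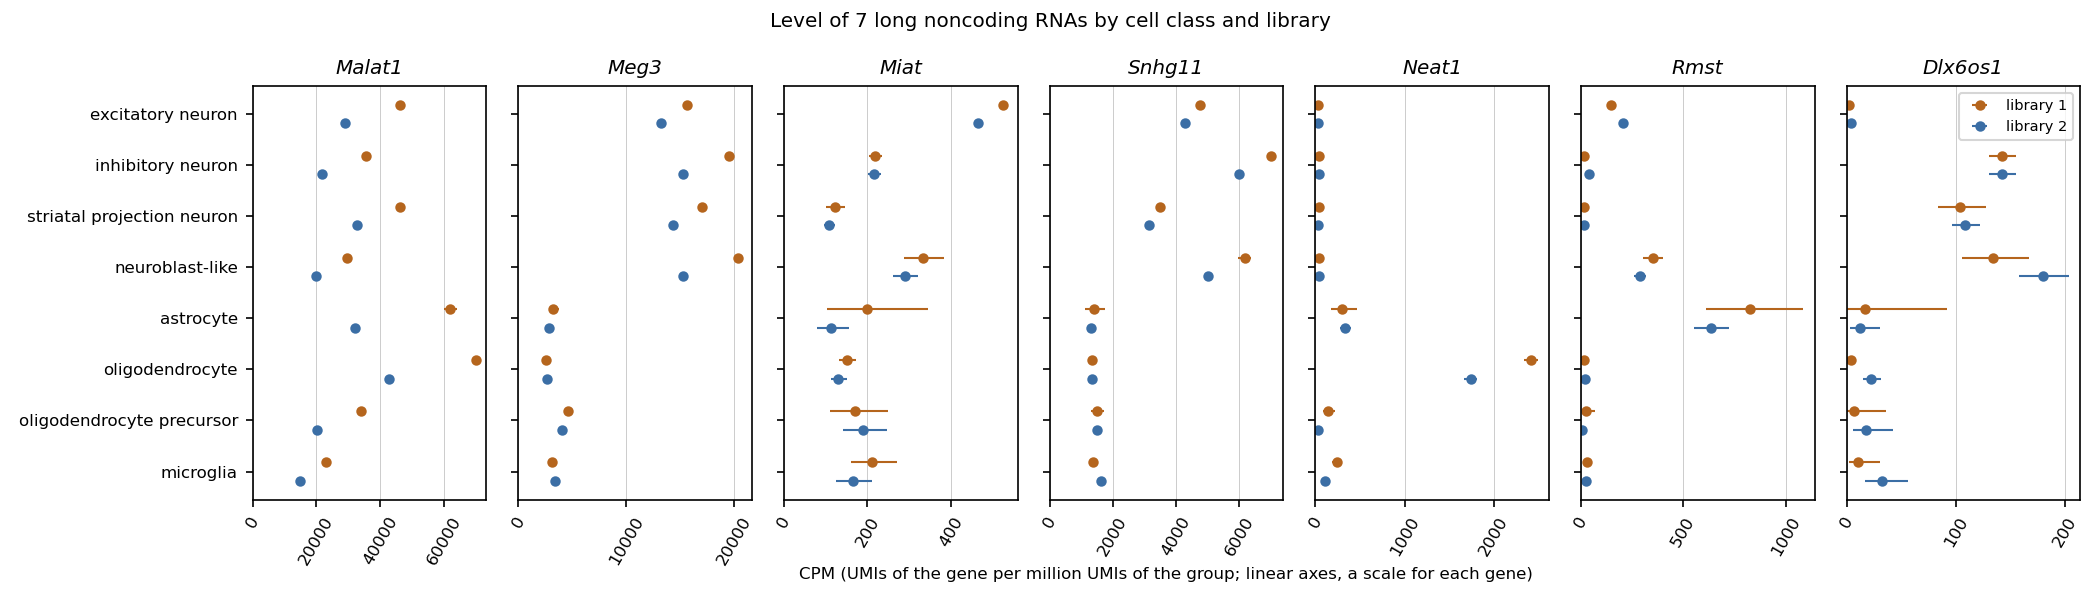
Level of each RNA (CPM, linear axes with a scale for each RNA) in the 8 cell classes, with a point for library 1 and one for library 2 and bars for exact 95% counting intervals. Oligodendrocytes of library 1, at 2411 CPM, and of library 2, at 1739 CPM, lie far to the right for Neat1, above every other class, and the Malat1 value of library 1 exceeds that of library 2 in 8 of 8 classes.

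Free RNA in the droplets adds UMIs to nuclei that do not make a transcript, and it was measured here with Slc17a7, the vesicular glutamate transporter of excitatory neurons. Slc17a7 reached 432 CPM in microglia and 373 CPM in astrocytes, against 364 CPM in excitatory neurons themselves. Among nuclei outside the excitatory class it was higher in library 2 than in library 1 in each of the other 7 classes. In oligodendrocytes, for example, it stood at 220 CPM in library 1 and at 501 CPM in library 2. For each RNA the lowest ratio of its level to this index, taken over the classes, set the most that free RNA could give in each class. For excitatory neurons the index came from myelin genes instead. A level whose interval reached that limit is reported below as at background, which says that it could not be told from free RNA and not that it was free RNA. The limit rests on the class with the lowest ratio, so at least 1 class reaches it for every RNA by construction.

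Malat1 lies on chromosome 19, at chr19:5795690-5802672 on the minus strand of the GRCm38 build, and GENCODE gives it as a lincRNA with 1 exon of 6983 bases. It stood at 56792 CPM in oligodendrocytes (56516 to 57069), at 37429 CPM in excitatory neurons, at 36618 CPM in astrocytes and at 36049 CPM in striatal neurons. Lower levels were counted in inhibitory neurons at 28385 CPM, in oligodendrocyte precursors at 25016 CPM, in neuroblast-like nuclei at 22793 CPM and in microglia at 18309 CPM. These pooled levels mix libraries that differ in mean Malat1 and in their share of each class, and the second place depended on the library. In library 1 oligodendrocytes had 69928 CPM and astrocytes came second at 61957 CPM, a ratio of 1.13. In library 2 oligodendrocytes had 42755 CPM and striatal neurons came second at 32790 CPM, a ratio of 1.3. Excitatory neurons lay below astrocytes in each library, at 46248 CPM in library 1 and at 28839 CPM in library 2, where astrocytes had 32042 CPM. Microglia were lowest in each library, and the range over the 8 classes was 3.06-fold in library 1 and 2.9-fold in library 2. At least 98.8% of nuclei in each class kept a Malat1 UMI after every nucleus was thinned to 500 UMIs. In microglia the level did not exceed the free RNA limit of 18638 CPM, while in the other 7 classes it did. In precursors that limit came to 53.6% of the level.

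Priming on oligo-dT can start at runs of A inside a transcript as well as at its tail. The longest Malat1 transcript has 1 run of at least 10 A, which is 12 A long. Such a run occurs in 9.34% of the 18930 lncRNA transcripts in GENCODE, but their median length is 942 bases, against 6983 for Malat1. The longest Meg3 transcript has 6 such runs, up to 16 A long, and those of the remaining RNAs have 0. The Malat1 stretch is shown because it is the place inside its single exon where the 3′ assay could also prime. Which site gave the UMIs was not tested. The stretch is printed with the A run in capitals, bases 6634 to 6725 of the Malat1 transcript.
Malat1 A run: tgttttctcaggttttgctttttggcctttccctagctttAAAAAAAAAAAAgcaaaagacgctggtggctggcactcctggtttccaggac

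Among 12 neuronal subclasses of at least 100 nuclei, Malat1 was highest in the claustrum-like nuclei, at 56934 CPM, against 41598 CPM in layer 2/3. The ratio was 1.37 (1.36 to 1.38). The lowest levels were 20511 CPM in LAMP5 interneurons and 19534 CPM in layer 5/6 near-projecting neurons. Both pathway subclasses of the striatum lay close together, the direct pathway at 36095 CPM and the indirect pathway at 35780 CPM. An excitatory cluster led by Rspo2 had 54629 CPM, and 262 of its 321 nuclei came from library 1.

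Neat1 sits 22.035 kb from Malat1, at chr19:5824708-5845478 on the same strand, with 1 exon of 20771 bases in its long form. UMIs were counted over the gene and do not tell the long form from its other transcripts. Neat1 was at 2086 CPM in oligodendrocytes (2033 to 2140), followed by astrocytes at 330 CPM, microglia at 168 CPM (138 to 202) and precursors at 70.1 CPM. The 4 neuronal classes held 31.2 to 44.9 CPM. Oligodendrocytes were 6.31 times astrocytes (5.31 to 7.57) and 66.9 times excitatory neurons, the lowest class. At a depth of 500 UMIs, 56.3% of oligodendrocytes had a Neat1 UMI (54.5% to 58.1%), against 11.5% of astrocytes and 1.74% of excitatory neurons. Before thinning, at medians of 812, 1192 and 4440 UMIs, these shares were 69.5%, 29.5% and 12.9%. The neuronal levels were at or near background, with free RNA limits of 26.1 CPM in excitatory neurons and 37.7 to 50.4 CPM in the other neuronal classes. Excitatory neurons passed theirs narrowly, at 31.2 CPM, while the pooled levels of the other neuronal classes did not. They also passed in library 1, at 35.4 CPM against 29.7 CPM, and in library 2, at 27.1 CPM against 20.1 CPM. In library 2 alone inhibitory neurons, at 38.0 CPM against 29.1 CPM, and neuroblast-like nuclei, at 44.5 CPM against 32.8 CPM, passed the limit too. The pooled level of precursors did not exceed their limit of 77.3 CPM. In library 1 alone precursors passed a limit of 70.9 CPM, at 144 CPM from 22 UMIs. In library 2 they had 29.1 CPM from 8 UMIs and did not pass. Across the neuronal subclasses Neat1 ran from 26.3 to 49.9 CPM, and 0 of the 11 steps between neighbours in that order were larger than counting error. Subclasses further apart in the order were not compared.

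Within the oligodendrocyte class Neat1 was uneven. The cluster led by Prr5l (2881 nuclei) had 2338 CPM, with 2732 CPM among its library 1 nuclei and 1929 CPM among those of library 2. The cluster led by 9630013A20Rik (193 nuclei) had 223 CPM, or 302 CPM for library 1 and 117 CPM for library 2. Malat1, its neighbour on the chromosome, showed the opposite order in these clusters, at 55477 CPM in the Prr5l cluster and 66530 CPM in the other. The 94 nuclei named as differentiating oligodendrocytes held 190 CPM of Neat1 (129 to 269) and 35090 CPM of Malat1. Outside the named oligodendrocyte class, an unnamed cluster led by Bnc2 had 1081 CPM of Neat1, one led by Inpp5d had 1024 CPM, and 58 perivascular macrophages had 466 CPM. Inpp5d is a microglia marker, and the 106 nuclei of its cluster had a median of 1510.5 UMIs. Microglia had a median of 693 UMIs and oligodendrocytes one of 812. Whether the unnamed clusters hold doublets with oligodendrocytes was not tested.

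Meg3 is transcribed from the maternal chromosome of the imprinted Dlk1-Dio3 domain, at chr12:109541001-109571726 on the plus strand, and its longest transcript has 5 exons and 14548 bases. It split the classes into neurons and glia. Inhibitory neurons had 17284 CPM, neuroblast-like nuclei 16812 CPM, striatal neurons 14982 CPM and excitatory neurons 14416 CPM. Oligodendrocyte precursors had 4236 CPM, microglia 3289 CPM, astrocytes 2951 CPM and oligodendrocytes 2608 CPM. All 7 steps in this order were larger than counting error, but the first was small, at 1.03 times (1.02 to 1.04). In library 1 alone neuroblast-like nuclei were highest, at 20360 CPM against 19489 CPM in inhibitory neurons. In library 2 alone the same classes had 15258 and 15262 CPM and could not be told apart. Library 1 alone also turned round the step of microglia over astrocytes, at 3159 and 3264 CPM.

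Part of the glial Meg3 could not be told from free RNA. In oligodendrocytes, microglia and astrocytes the free RNA limits were 2668, 3236 and 2797 CPM, which the pooled levels did not exceed beyond counting error. Taken alone, library 2 passed its limits in microglia, at 3390 CPM against 2939 CPM, and in astrocytes, at 2894 CPM against 2066 CPM. Library 1 narrowly passed its own in oligodendrocytes, at 2546 CPM against 2461 CPM. In precursors Meg3 passed its limit of 2329 CPM, and it did so in each library. At 500 UMIs per nucleus, 99.8% of excitatory neurons and 72.1% of oligodendrocytes had a Meg3 UMI, so a single UMI did not separate neurons from glia. Among the neuronal subclasses the range was 1.49-fold. It reached from 18737 CPM in layer 5 extratelencephalic neurons to 12571 CPM in layer 6 corticothalamic neurons. Somatostatin neurons, at 18116 CPM, followed the first by a ratio of 1.03 (1.02 to 1.05). This order turned round in library 1, where somatostatin neurons had 20332 CPM and layer 5 extratelencephalic neurons 19999 CPM. The 50 cholinergic nuclei had 21541 CPM (21026 to 22064), above each of the 8 classes.

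The Meg3 start site is shown because 2 further transcripts of the same domain followed its levels, as described with the pattern comparison further on. RefSeq gives 2 promoter windows, and the one shown lies at chr12:109540746-109541045, plus strand, of GRCm38.p6. It holds 1 copy of TGACGTCA, a palindrome known as the cAMP response element, which 1.79% of 32851 RefSeq promoter windows of this length hold on either strand. It also holds TATAAA, found in 13.6% of the windows, in overlapping copies on both strands. The other Meg3 window, at chr12:109545148-109545447, holds 0 copies of either sequence. In the window shown both stretches are in capitals.
Meg3 promoter: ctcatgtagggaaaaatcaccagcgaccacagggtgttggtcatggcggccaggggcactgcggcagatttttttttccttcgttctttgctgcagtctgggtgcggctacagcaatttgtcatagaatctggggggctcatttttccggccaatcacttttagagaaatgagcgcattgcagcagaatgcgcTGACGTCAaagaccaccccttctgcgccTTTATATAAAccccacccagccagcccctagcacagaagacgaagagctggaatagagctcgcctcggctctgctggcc
A match is a description of letters and shows no binding.

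Snhg11, at chr2:158375638-158386145 on the plus strand, hosts small nucleolar RNAs in its introns. GENCODE types it as protein-coding although its symbol marks it as a host gene, and its longest transcript has 5 exons and 5864 bases. Inhibitory neurons had 6487 CPM (6428 to 6545), neuroblast-like nuclei 5380 CPM, excitatory neurons 4512 CPM and striatal neurons 3231 CPM. In glia it stood between 1334 CPM in astrocytes and 1516 CPM in microglia, and in the pooled values precursors, at 1502 CPM, passed the free RNA limit while the other 3 glial classes did not. Oligodendrocytes of library 1, at 1336 CPM against a limit of 1117 CPM, and astrocytes of library 2, at 1319 CPM against 1056 CPM, also passed it. Inhibitory neurons exceeded the next class 1.21 times (1.18 to 1.23), and they led in each library. Parvalbumin interneurons were highest of the 12 subclasses at 6823 CPM, with library 1 at 7442 CPM and library 2 at 6259 CPM. LAMP5, somatostatin and VIP interneurons followed at 6479, 6292 and 5923 CPM. Near-projecting neurons, at 5760 CPM, were the highest excitatory subclass, and the indirect pathway of the striatum was lowest at 2998 CPM. The lead of parvalbumin over LAMP5 neurons was 1.05 times (1.02 to 1.09) and was not clear in library 2 alone. At 500 UMIs 95.1% of inhibitory neurons and 77.6% of striatal neurons had a Snhg11 UMI.

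Miat, also called Gomafu, lies at chr5:112213228-112229395 on the minus strand, with 7 exons and 9163 bases in its longest transcript. A gene of unknown function, Gm26953, overlaps it on the opposite strand. Since the sources used here do not state a strand setting for counting, whether reads of the pair were told apart is not known. Genes on the opposite strand also overlap Malat1 (Gm37376), Meg3 (Gm26906) and Rmst (Gm26700), and the same limit holds for them. Miat RNA is known for repeats of the sequence TACTAAC, which matches the branch point that the splicing factor Sf1 recognises. The longest transcript has 6 copies, or 0.655 per kb, a density that 1.32% of GENCODE lncRNA transcripts reach. Any copy at all occurs in 3.78% of them, on the transcript strand. Bases 4833 to 5072 hold 3 of the copies, in capitals, and are shown because the longest transcript of Neat1 holds 1 copy and those of the other 5 RNAs hold 0.
Miat repeats: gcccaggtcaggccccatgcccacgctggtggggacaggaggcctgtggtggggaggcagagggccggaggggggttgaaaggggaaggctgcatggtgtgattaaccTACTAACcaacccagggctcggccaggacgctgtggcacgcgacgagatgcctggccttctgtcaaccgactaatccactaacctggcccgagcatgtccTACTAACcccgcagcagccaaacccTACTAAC

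Miat was highest in excitatory neurons, at 495 CPM (487 to 502), against 303 CPM in neuroblast-like nuclei (279 to 329), a ratio of 1.63 (1.5 to 1.77). Inhibitory neurons had 217 CPM and striatal neurons 112 CPM, the lowest of the 8 classes. In microglia, oligodendrocytes and astrocytes the 126 to 185 CPM counted did not exceed the free RNA limit. Excitatory neurons led in library 1 at 526 CPM and in library 2 at 464 CPM. At 500 UMIs per nucleus 21.6% of excitatory neurons (20.7% to 22.5%) and 5.29% of striatal neurons had a Miat UMI, and 9.20% of microglia, a background class, also had one. Before thinning the shares were 81.6%, 25.9% and 13%, at median depths of 4440, 2858.5 and 693 UMIs.

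The subclasses of excitatory neurons differed in Miat. Layer 5 extratelencephalic neurons, which send axons out of the forebrain, had 701 CPM (673 to 729). Layer 6b followed at 549 CPM (512 to 587), a ratio of 1.28 (1.18 to 1.38). Layer 6 corticothalamic neurons had 464 CPM and layer 2/3 neurons 456 CPM, while claustrum-like and near-projecting nuclei had 280 and 272 CPM. Among interneurons, parvalbumin neurons had 139 CPM (126 to 153), below LAMP5, somatostatin and VIP neurons at 293, 269 and 253 CPM. The 50 cholinergic nuclei had 533 CPM (455 to 621). Layer 5 extratelencephalic neurons stayed first in library 1 at 736 CPM and in library 2 at 659 CPM.

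**Figure D2:**
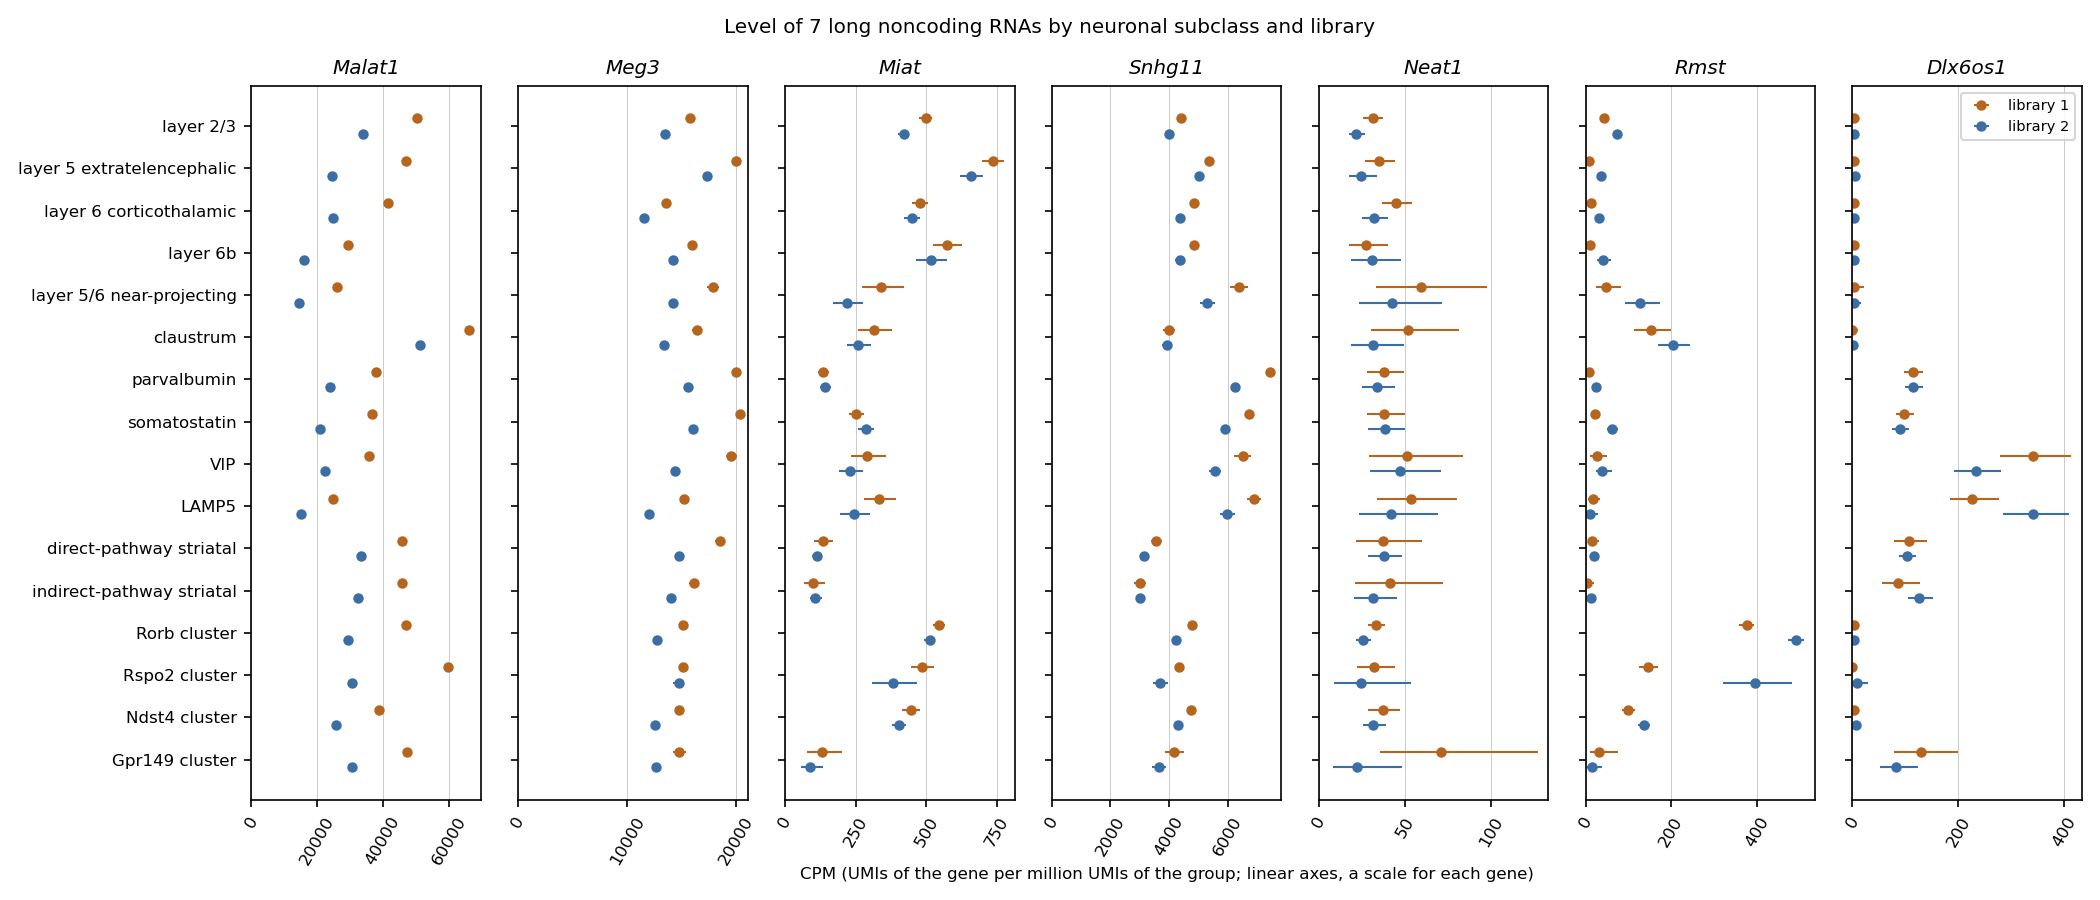
Level of each RNA (CPM, linear axes with a scale for each RNA) in the 12 neuronal subclasses and, below them, in neuronal clusters known by a leading gene, with a point for each library and bars for exact 95% counting intervals. Miat was highest in layer 5 extratelencephalic neurons, with 736 CPM for library 1 and 659 CPM for library 2, and the libraries order VIP and LAMP5 neurons oppositely for Dlx6os1.

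Rmst spans 94.134 kb at chr10:92071037-92165170 on the minus strand, and its longest transcript has 10 exons and 2891 bases. The RNA is known as a partner of the transcription factor Sox2 in neural progenitors. Its introns and exons span 2 microRNA genes on the same strand, so the sequences of their mature products are given, with the seed (bases 2 to 8) in capitals and letters from RefSeq (GRCm38.p6). The seeds differ between the 2 genes. MicroRNAs themselves are not read by a 3′ assay.
miR-135a-5p, from chr10:92072141-92072163: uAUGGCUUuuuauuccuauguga
miR-1251-5p, from chr10:92137190-92137210: aCUCUAGCugccaaaggcgcu
Meg3 likewise spans Mir770.
miR-770-5p, from chr12:109563710-109563731: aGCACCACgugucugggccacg

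Rmst was highest in astrocytes, at 663 CPM (586 to 748), against 306 CPM in neuroblast-like nuclei (282 to 332) and 176 CPM in excitatory neurons. The ratio of the first to the second was 2.17 (1.87 to 2.51). Inhibitory neurons had 28.5 CPM, and oligodendrocytes, precursors and microglia, at 14.0 to 25.8 CPM, were at background. Astrocytes led in library 1 at 824 CPM from 50 UMIs and in library 2 at 634 CPM from 213 UMIs. Thinned to 500 UMIs, 28.2% of astrocytes (23.2% to 33.6%), 11% of neuroblast-like nuclei and 0.846% of oligodendrocytes had an Rmst UMI. Unthinned, 52.8%, 27.4% and 1.56% had one. Sox2 itself was highest in astrocytes, at 106 CPM, against 56.1 CPM in precursors, where Rmst was at 14.0 CPM.

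Excitatory neurons were not uniform for Rmst. A cluster of 1943 nuclei led by Rorb, a gene of middle cortical layers, had 434 CPM (422 to 447), with library 1 at 376 CPM and library 2 at 491 CPM. The Rspo2 cluster had 190 CPM, claustrum-like nuclei 184 CPM, a cluster led by Ndst4 122 CPM and near-projecting neurons 93.0 CPM. Layer 2/3 neurons had 58.4 CPM, and layer 6b, layer 6 corticothalamic and layer 5 extratelencephalic neurons had 20.3 to 23.6 CPM. At 500 UMIs 17.7% of the Rorb cluster and 0.739% of layer 6 corticothalamic neurons had an Rmst UMI. Of the named subclasses claustrum-like nuclei led near-projecting neurons 1.98 times (1.45 to 2.75). Among interneurons, somatostatin neurons had 42.6 CPM and VIP neurons 33.9 CPM, a ratio of 1.26 whose interval of 0.82 to 1.99 includes 1. In library 1 the order was the other way, at 22.4 CPM in somatostatin and 25.7 CPM in VIP neurons.

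Dlx6os1, also called Evf2, runs antisense across Dlx6 at chr6:6820189-6871592 on the minus strand, with 3 exons and 4608 bases. Reads of the overlapping pair may be split uncertainly between them, for the same reason as for Miat. The RNA is known to act on the enhancers that control Dlx5 and Dlx6, genes of homeodomain factors in forebrain inhibitory neurons. Homeodomain proteins of the Dlx family bind sequences with the core TAATTA, so a promoter is shown with that core in capitals. RefSeq gives 2 promoter windows, and the one shown lies at chr6:6869484-6869783, minus strand, GRCm38.p6. It holds 2 copies of TAATTA, and 5.29% of the promoter windows hold at least 1. The other window, at chr6:6861634-6861933, holds 1 copy. The match describes letters only.
Dlx6os1 promoter: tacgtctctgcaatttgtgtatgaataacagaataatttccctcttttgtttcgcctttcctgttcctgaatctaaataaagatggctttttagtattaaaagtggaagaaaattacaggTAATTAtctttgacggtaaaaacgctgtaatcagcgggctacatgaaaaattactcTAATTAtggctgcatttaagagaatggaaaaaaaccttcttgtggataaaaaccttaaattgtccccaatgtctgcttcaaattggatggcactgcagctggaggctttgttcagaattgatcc

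Dlx6os1 was present in the classes with Gad2, the enzyme that makes GABA. Neuroblast-like nuclei had 166 CPM (148 to 185), inhibitory neurons 142 CPM (134 to 151) and striatal neurons 108 CPM (97.2 to 119). Excitatory neurons had 3.23 CPM from 115 UMIs in 7513 nuclei, a 51.2-fold difference from the first. That value and those of astrocytes, oligodendrocytes, precursors and microglia, at 12.6 to 22.7 CPM, did not exceed the free RNA limit. The lead of neuroblast-like nuclei over inhibitory neurons was 1.16 times (1.02 to 1.32). It came from library 2, with 179 against 142 CPM, since in library 1 the values were 134 and 142 CPM. At 500 UMIs 12.6% of neuroblast-like nuclei, 8.41% of inhibitory neurons and 0.106% of excitatory neurons had a Dlx6os1 UMI. Unthinned, 26.3%, 31.7% and 1.36% had one, at median depths of 2071.5, 2873.5 and 4440 UMIs.

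Interneuron subclasses formed a high and a low pair. LAMP5 neurons had 279 CPM (243 to 318) and VIP neurons 275 CPM (240 to 314), whereas parvalbumin and somatostatin neurons had 115 and 93.9 CPM. The libraries ordered the high pair oppositely. Library 1 had 226 CPM in LAMP5 and 341 CPM in VIP neurons, and library 2 had 342 CPM in LAMP5 and 232 CPM in VIP neurons. The direct and indirect pathways had 104 and 117 CPM, and the cholinergic nuclei 191 CPM (145 to 246). In the 6 excitatory subclasses the level was 1.08 to 4.0 CPM. A clear highest subclass was found for 5 of the 7 RNAs, all but Neat1 and Dlx6os1, and for 14% of 14243 genes measured there.

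The neuroblast-like class was mixed, and this bears on Dlx6os1, Meg3 and Rmst. A second clustering, chosen after the data were seen, gave 4 sets of nuclei. The largest, led by Zfp804a, held 417 of the 810 nuclei and had less of every class marker than the set led by Top2a. Against neurons its markers went both ways. Its Dcx, a gene of migrating young neurons, was at 120 CPM, against 138 CPM in inhibitory and 131 CPM in excitatory neurons. Mki67 was also lower there, at 10.0 CPM, against 13.1 CPM in inhibitory and 11.5 CPM in excitatory neurons. Sox11, at 95.7 CPM, was higher than in inhibitory neurons at 40.3 CPM and excitatory neurons at 58.1 CPM. Igfbpl1, at 30.7 CPM, was higher than in these classes too, at 5.22 and 4.05 CPM. In the set led by Top2a, Igfbpl1 was at 356 CPM and Cd24a at 90.0 CPM, against 3.57 CPM of Cd24a in the Zfp804a set. Values of the class as a whole include these nuclei. The set led by Top2a, a gene of dividing cells, held 204 nuclei with 432 CPM of Dlx6os1 (358 to 517), 11152 CPM of Meg3 and 184 CPM of Rmst. The Zfp804a set held 92.9 CPM of Dlx6os1 (77.6 to 110), 19007 CPM of Meg3 and 346 CPM of Rmst. A set of 84 nuclei led by Adamts19 had 436 CPM of Dlx6os1, 9197 CPM of Meg3 and 468 CPM of Rmst, and 105 nuclei led by Chst9 had 179 CPM of Dlx6os1, 12122 CPM of Meg3 and 89.6 CPM of Rmst. In each library the Top2a set had more Dlx6os1 than the Zfp804a set, at 367 against 74.4 CPM in library 1 and 459 against 101 CPM in library 2. All 4 sets held Gad2, at 263 to 378 CPM. Median depth differed too, at 1036.5 UMIs in the Top2a set and 3036 UMIs in the Zfp804a set, and its part in these values was not tested.

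Library 1 and library 2 were then set side by side within each class. With classes of at least 50 nuclei in each library and at least 50 UMIs for the RNA, 48 pairs of an RNA and a class could be measured. A pair was called where the ratio passed 1.5-fold in either direction and its interval did not include 1. This held for 9 of 48 pairs, or 18.8%, while 12.3% of 57499 gene and class pairs passed over all genes. Malat1 made up 6 of the 9. The others were Neat1 in microglia, Rmst in inhibitory neurons and Dlx6os1 in excitatory neurons. With 1 library per group there is no replicate check of any of these ratios.

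Malat1 was higher in library 1 in 8 of 8 classes and 12 of 12 subclasses. In excitatory neurons it had 46248 CPM in library 1 and 28839 CPM in library 2, a ratio of 1.60. Oligodendrocytes had 69928 and 42755 CPM in libraries 1 and 2, a ratio of 1.64 (1.62 to 1.65). The ratio ran from 1.40 in striatal neurons to 1.93 in astrocytes, and over the subclasses from 1.29 in claustrum-like nuclei to 1.91 in layer 5 extratelencephalic neurons. Over all genes the median ratio lay between 0.962 and 1.04 in the 8 classes. The share of all genes called was 7.24% in excitatory neurons, 8.78% in inhibitory neurons, 11.2% in striatal neurons, 10.1% in neuroblast-like nuclei, 16.1% in astrocytes, 20.7% in oligodendrocytes, 16% in precursors and 27.6% in microglia. The Slc17a7 index of free RNA differed the other way, being higher in library 2, and its part in the Malat1 ratio was not tested.

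**Figure D3:**
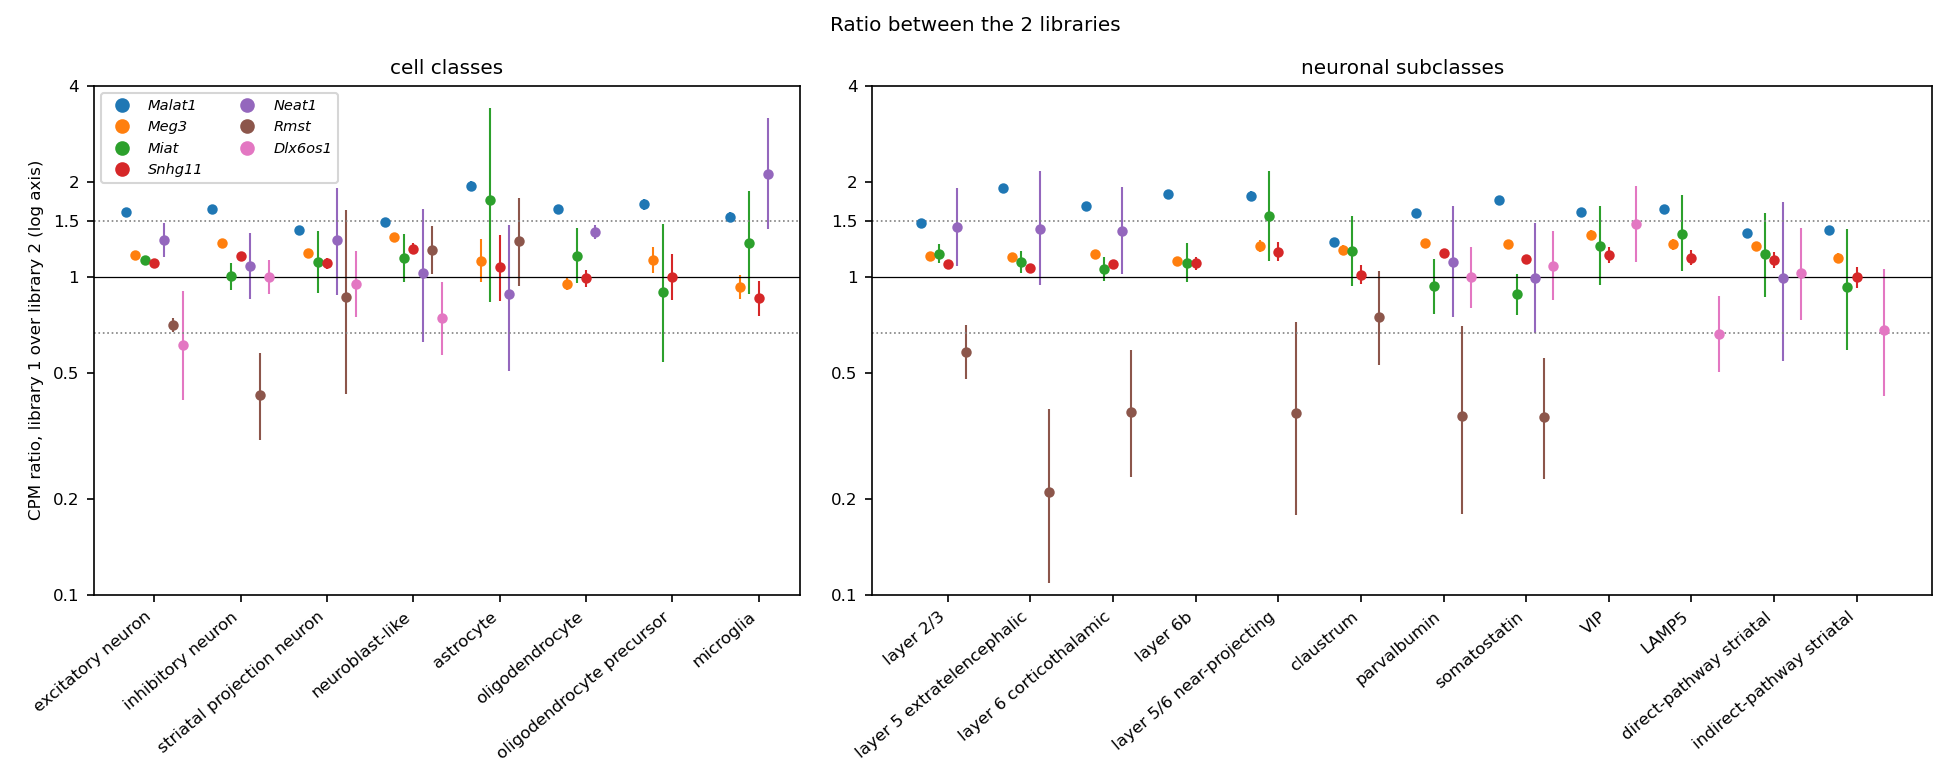
Ratio of the level in library 1 to that in library 2 (log axis) with exact 95% intervals for each RNA that could be measured, in cell classes on the left and in neuronal subclasses on the right, where dotted lines mark 1.5-fold in either direction. All 8 Malat1 ratios of the classes lay between 1.40 and 1.93, and Rmst ran there from 0.42 in inhibitory neurons to 1.3 in astrocytes.

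Meg3 and Snhg11 were also somewhat higher in library 1 in neurons, without passing 1.5-fold. Meg3 ratios were 1.18 in excitatory, 1.28 in inhibitory, 1.19 in striatal and 1.33 in neuroblast-like nuclei, and 1.12 to 1.36 in the 12 subclasses. In oligodendrocytes and microglia, where pooled Meg3 did not pass the free RNA limit, the ratios were 0.95 and 0.93. Snhg11 ratios ran from 0.86 in microglia to 1.23 in neuroblast-like nuclei. Miat differed by 1.13 in excitatory neurons (1.10 to 1.17), and the interval of its ratio excluded 1 in that class alone of the 8.

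Rmst went the other way in neurons of the cortex. Excitatory neurons had 146 CPM in library 1 and 206 CPM in library 2, a ratio of 0.71 (0.67 to 0.74). Inhibitory neurons had 16.7 and 39.3 CPM in libraries 1 and 2, a ratio of 0.42 (0.31 to 0.58). It was lower in library 1 in 7 of the 7 subclasses measured, and 6 passed 1.5-fold. Over all genes 6.66% of gene and subclass pairs were lower in library 1 past 1.5-fold in these subclasses. In layer 5 extratelencephalic neurons the ratio was 0.21 (0.11 to 0.38), from 14 UMIs in library 1 and 57 in library 2. Layer 2/3 neurons had 42.2 CPM in library 1 and 72.6 CPM in library 2, a ratio of 0.58. In astrocytes and neuroblast-like nuclei the ratios were instead 1.3 (0.94 to 1.78) and 1.22 (1.03 to 1.45). In inhibitory neurons the Slc17a7 index was 96.8 CPM for library 1 and 201 CPM for library 2, and its part in the Rmst ratio was not tested.

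Neat1 in oligodendrocytes had 2411 CPM in library 1 and 1739 CPM in library 2, a ratio of 1.39 (1.32 to 1.46). In microglia the counts were small, 69 UMIs in library 1 and 42 in library 2, for 239 and 113 CPM and a ratio of 2.11 (1.42 to 3.17), where 27.6% of genes were called. Astrocytes had 297 CPM in library 1 and 336 CPM in library 2, a ratio whose interval of 0.50 to 1.46 includes 1. Dlx6os1 had 142 CPM in inhibitory neurons of each library. Its called pair, in excitatory neurons, rested on 43 UMIs in library 1 and 72 in library 2, at levels of 2.45 and 3.99 CPM that lie at background.

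Depth within a class moved with several levels. Excitatory neurons with 1000 to 2000 UMIs had 13870 CPM of Malat1, and the next bins held 28600 CPM, 40062 CPM and, in nuclei of at least 8000 UMIs, 42714 CPM. In inhibitory neurons the bins gave 19923, 26246 and 35410 CPM. The difference between the libraries was seen within bins. Library 1 was higher in 16 of 16 bins of class and depth, with ratios of 1.38 to 2.35. Excitatory neurons of 4000 to 8000 UMIs, for example, had 48740 CPM in library 1 and 31454 CPM in library 2.

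Meg3 and Snhg11 varied less with depth in excitatory neurons, with Meg3 between 13550 and 15739 CPM and Snhg11 between 4441 and 5301 CPM over the 4 bins. Neat1 in oligodendrocytes was lower in deeper nuclei, at 2528, 1530 and 513 CPM in bins from 500, 1000 and 2000 UMIs. The oligodendrocyte bins mix the Prr5l and 9630013A20Rik clusters described above, which differed in Neat1. The part of that mixing in the fall with depth was not tested. Dlx6os1 in neuroblast-like nuclei in bins from 500, 1000, 2000 and 4000 UMIs was at 909, 234, 80.4 and 73.3 CPM, while Meg3 there was 7072, 11699, 19152 and 19004 CPM. Those bins mix the 4 sets described above.

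**Figure D4:**
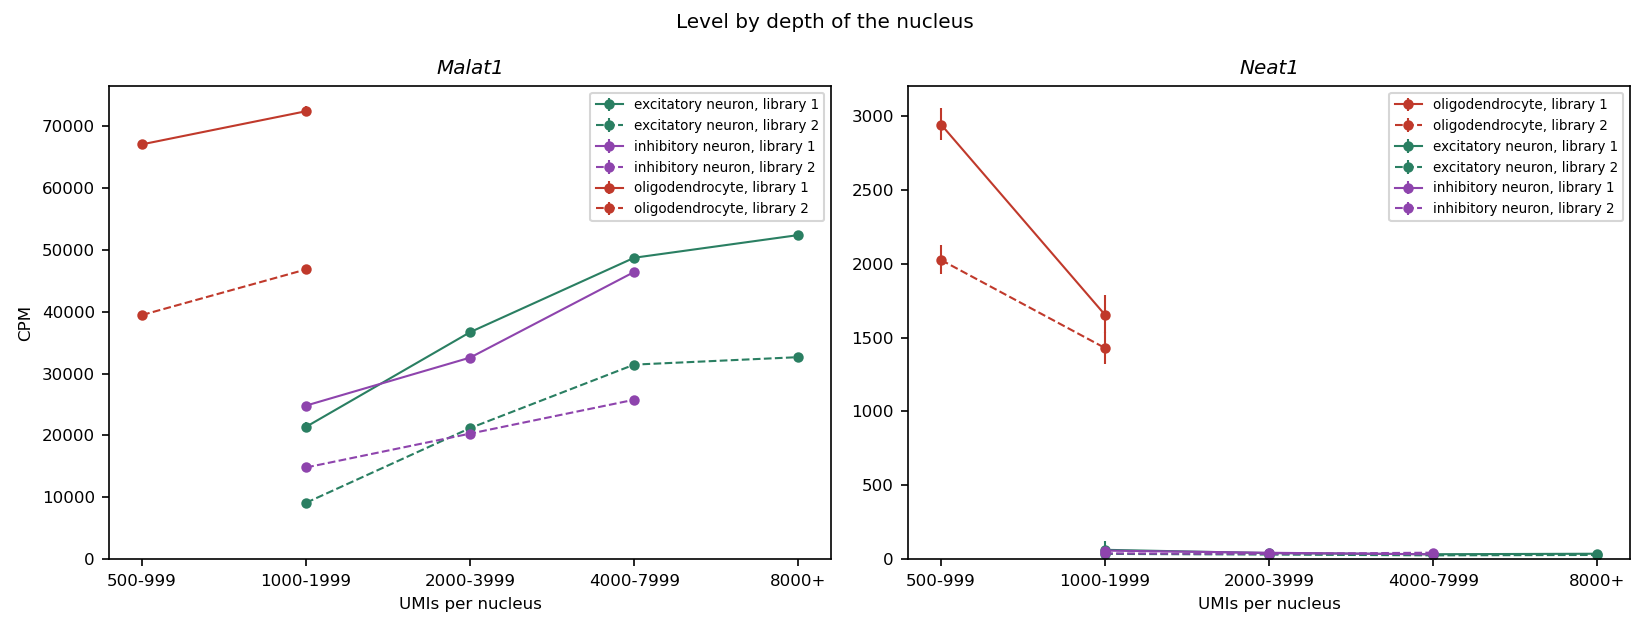
Level of Malat1 and of Neat1 (CPM, linear axes) in bins of UMIs per nucleus, for excitatory neurons, inhibitory neurons and oligodendrocytes of library 1 (solid lines) and library 2 (dashed lines), with exact 95% counting intervals. In excitatory neurons of 4000 to 8000 UMIs Malat1 was at 48740 CPM for library 1 and at 31454 CPM for library 2, and the line of library 1 lies above that of library 2 in every Malat1 bin shown.

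Genes with the most similar pattern were ranked by Pearson's r of log2(CPM + 10) with each RNA over 17 groups, the classes and subclasses of at least 100 nuclei, among 8140 genes with at least 50 CPM in a group. The groups share 2 libraries and their free RNA, so these values are descriptions. For Meg3 the nearest genes were Mirg (r = 0.98), B830012L14Rik (0.98) and Ube3a (0.96). Mirg and B830012L14Rik lie on the same strand of chromosome 12, 158.037 kb and 123.859 kb beyond Meg3. Mirg stood at 244 CPM in inhibitory neurons and 240 CPM in neuroblast-like nuclei, against 30.3 CPM in astrocytes. Snhg11 had Ube3a (0.97), Mirg (0.96) and 2410089E03Rik (0.95) as its nearest genes, and Meg3 and Snhg11 themselves gave 0.93.

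Dlx6os1 followed the genes of GABA synthesis and loading, Gad2 (0.98), Slc32a1 (0.94) and Gad1 (0.93). Neat1 was nearest to Ppfibp2, Slc48a1 and Il33 (0.97 each), all highest in oligodendrocytes. Its r was -0.86 with Meg3 and -0.74 with Snhg11. Miat was nearest to Khdrbs3 (0.90), which encodes an RNA-binding protein, to AC129186.1 (0.90) and to Sphkap (0.88). Rmst and Malat1 had looser company, with Ddo (0.81), 9430041J12Rik (0.79) and Med25 (0.78) for Rmst and Ntng2 (0.74), Dopey2 (0.73) and Pls1 (0.70) for Malat1. Ntng2 was itself a marker used to name the claustrum-like nuclei. Malat1 and Neat1, neighbours on chromosome 19, had an r of 0.29.

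**Figure D5:**
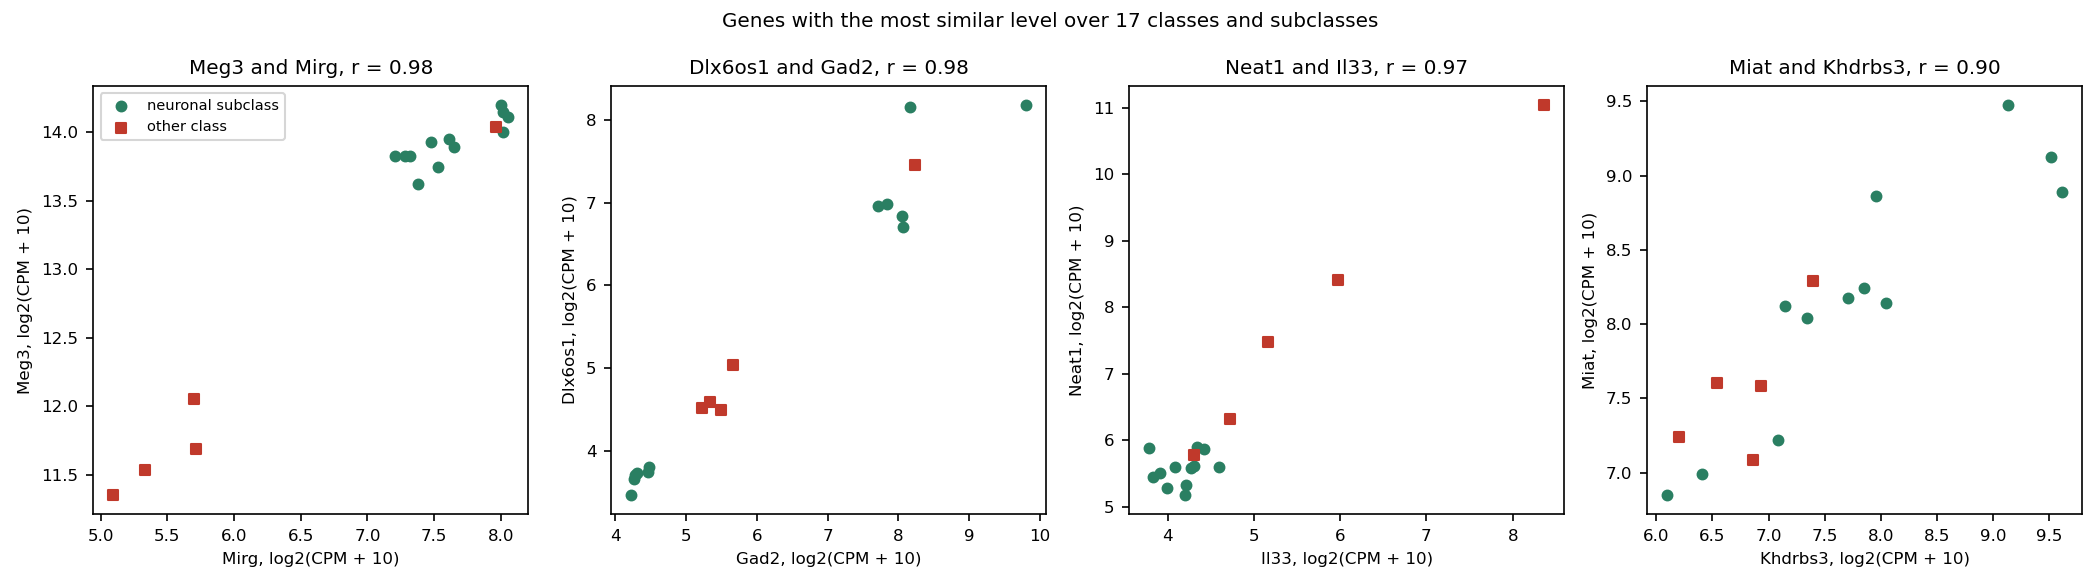
Level of Meg3, Dlx6os1, Neat1 and Miat (y axes) against that of a gene with a similar pattern (x axes), both as log2(CPM + 10), with a point for each of 17 groups, round for neuronal subclasses and square for other classes. Dlx6os1 and Gad2 (r = 0.98) are high in the same groups, and Meg3 and Mirg (r = 0.98) separate neuronal groups from glia.

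The genes of proteins that work with these RNAs were looked up from fixed lists. Sfpq, a core paraspeckle protein, was at 167 CPM in neuroblast-like nuclei and 158 CPM in microglia. The counts that follow stand against the 29.5% of all genes with a clear highest class. Of 8 nuclear speckle protein genes, 6 had one, with a median ratio of highest to next class of 1.21, against 1.26 over all genes. Of these 6, 2 led in oligodendrocytes, as Malat1 did, 2 in astrocytes and 2 in microglia, where Malat1 was lowest. Srsf2, a splicing factor, led in oligodendrocytes at 915 CPM against 741 CPM in astrocytes. Srrm2 led in microglia at 626 CPM, against 525 CPM in inhibitory neurons. Son, a speckle scaffold, led in astrocytes at 1299 CPM, against 945 CPM in microglia.

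Among the genes of 5 protein partners of Miat and Rmst, 4 had a clear highest class, again beside 29.5% of all genes. Sox2 and Hnrnpa2b1, reported partners of Rmst, were highest in astrocytes, as Rmst was, and Hnrnpa2b1 stood at 827 CPM there against 562 CPM in microglia. Below astrocytes the orders differed. Hnrnpa2b1 was lowest in excitatory neurons, at 191 CPM, while Rmst had 176 CPM there against 25.8 CPM in microglia. Qk, an RNA-binding protein of myelinating cells, led in oligodendrocytes at 2357 CPM, against 1185 CPM in astrocytes. Celf3, a splicing regulator reported to bind Miat, led in striatal neurons at 237 CPM, against 202 CPM in excitatory neurons. Sf1 had no clear highest class. Of 5 Dlx genes measured, Dlx1as, an antisense RNA of Dlx1, had a clear highest class, at 94.9 CPM in inhibitory neurons against 46.9 CPM in neuroblast-like nuclei. Dlx5 and Dlx6, next to Dlx6os1, were at 22.5 and 11.4 CPM in inhibitory neurons, and at 20.6 and 11.9 CPM in neuroblast-like nuclei. Of 4 further genes of the Dlk1-Dio3 domain measured, 0 had a clear highest class. Of 28 other long noncoding RNAs listed, 16 were found and 9 had a clear highest class. Mirg and Dlx1as are on this list as well as on the lists before it, so Dlx1as is counted again. The 16 had 728 to 18907 UMIs, while the share over all genes covers genes from 50 UMIs. Snhg20 had 530 CPM in astrocytes, against 458 CPM in inhibitory neurons, and Mir124a-1hg had 425 CPM in inhibitory neurons, against 307 CPM in excitatory neurons.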

How the data were processed

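Single-nucleus RNA was measured in 1 METH and 1 Control library. The deposited matrix holds UMI counts, whole numbers for every gene in every barcode, on the mm10 build. Cell Ranger 1.3.0 and Seurat 3.1.4 are listed in the submitters' processing notes, while per the file headers the matrix was written by software version 3.1.0. A strand setting, a barcode filter or an equalisation of depth is not given in the sources used here. No mitochondrial gene was found by symbol.

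From these counts, nuclei under 500 genes were dropped, as were doublets called in each library with Scrublet (Scanpy 1.11.5), 889 in library 1 and 660 in library 2. Counts were scaled to 10000, 3000 variable genes were chosen without the 7 RNAs, and 50 principal components, 20 neighbours and Leiden resolution 1 (igraph 0.11.9) gave 26 clusters. They were named "-like" from at least 3 markers that reached 20 CPM. Unnamed clusters were clustered again at resolution 0.5. Summed UMIs per class gave CPM with exact Poisson intervals. Ratios carry exact conditional binomial intervals, and shares carry exact Clopper-Pearson intervals (SciPy 1.17.1). Thinning drew 500 UMIs per nucleus. The scripts were tested on simulated data. The RNAs, gene lists and markers were chosen with earlier results of these data known. Genes other than the 7 were named by rule, from fixed lists (at most the 4 with the most UMIs, plus genes a sentence turns on, which were chosen after their values were seen) and as the 3 most similar patterns. Counts over the list of paraspeckle protein genes are not reported here. Coordinates are from GENCODE for GRCm38, promoter and microRNA letters are from RefSeq GRCm38.p6, and promoters matched for Malat1, Meg3, Miat, Snhg11 and Dlx6os1. Alternatives covered the gene minimum, doublets, variable genes, resolution, totals, thinning, free RNA, each library alone and the fold threshold.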

Additional observations from a re-analysis of the deposited data

How the results depend on the processing

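No paired analysis was possible because each group is 1 library and no label ties a barcode number to a group. The count of RNAs with a clear highest class was 7 and was 6 or 7 under the alternatives. This count does not say that the highest class stayed the same. With at least 1000 genes per nucleus 4 classes were compared, and 5 RNAs had the same highest class. With doublets kept, 6 RNAs had the same highest class, and at resolution 0.5 it was 6 over 7 classes. The count with a clear highest neuronal subclass was 5. It was 6 with at least 1000 genes per nucleus and 6 with doublets kept. It was 3 when every nucleus was thinned to 500 UMIs, which leaves fewer UMIs to compare. The 9 pairs past 1.5-fold between the libraries became 5 with at least 1000 genes per nucleus, where 4 of the 8 classes and 25 of the 48 pairs could still be measured. They became 17 when an excess of 25% of either library over the other was enough and 2 at a threshold of 2-fold. Among ratios of the highest to the next group that were clear, 4 values turned round. Dlx6os1 in neuroblast-like over inhibitory nuclei had a ratio of 0.909 with doublets kept and 0.940 in library 1 alone. In library 1 alone Meg3 also had a ratio of 0.957 for inhibitory over neuroblast-like nuclei and 0.984 for layer 5 extratelencephalic over somatostatin neurons. The ratios of the pairs that were not clear had no settled direction. Dlx6os1 in LAMP5 over VIP neurons fell below 1 in 8 of 12 alternatives, ranging from 0.663 to 1.47, and Neat1 in near-projecting over VIP neurons did so in 5 of 12, ranging from 0.386 to 2.29. The cause of these changes was not tested. Over all such ratios and alternatives, 97 values stayed within the counting interval of the ratio reported, 53 moved beyond it, on either side of 1 for the pairs that were not clear, and 4 clear ones turned round. Depth limits Dlx6os1 and Rmst, since both were counted in under 100 UMIs in several classes and in single subclasses of either library.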
